A study of Homo sapiens with 9 samples.

Results

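The transport kinesins described here are 10 genes of 32906 listed, namely KIF1A, KIF1B, KIF1C, KIF3A, KIF3B, KIF5B, KIF5C, KLC1, KLC2 and KIF13B. KIF1C was picked by its measured rise with both siRNAs against KDM4C, so its difference from the control is given as a description with no test. The other 9 were added as relatives or partner chains that carry cargo along microtubules.

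Kinesins are motor proteins that use ATP to walk along microtubules, in most cases toward the plus end. The heavy chain holds the motor, and light chains or accessory subunits join it to cargo. In liver-derived and other dividing cells, kinesin-1 moves mitochondria, vesicles and mRNA particles, kinesin-2 serves the cilium and endosomes, and kinesin-3 carries vesicles.

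RNA was sequenced from Huh7, an established human hepatocellular carcinoma cell line, in 3 groups of 3 libraries. All cells were transfected and collected 48 h later. The control group received a scrambled siRNA (Scramble), and the other groups received Si-KDM4C#1 or Si-KDM4C#2, siRNAs of different sequence against the histone lysine demethylase KDM4C. No group carried another allele, drug or irradiation. The knockdown is transient and was made in this 1 line. The labels do not say whether the 3 libraries of a group came from separate cultures, so p-values measure the spread between libraries, which may be technical. The whole cell population was lysed, so fewer cells that express a gene and less RNA per cell cannot be told apart.

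The deposited unit is FPKM, fragments per kilobase of exon scaled to the mapped fragments of the library. It scales each gene by the summed length of its annotated exons, so levels of different genes compare only roughly. The fragments recovered from these values summed to between 14597502 and 18058555 per library. KDM4C itself stood at 4.88, 4.63 and 4.57 FPKM in Scramble, at 1.18, 1.10 and 1.13 FPKM after Si-KDM4C#1 and at 0.256, 0.349 and 0.256 FPKM after Si-KDM4C#2, so every library followed its label. Of 14 hepatocyte markers, the 10 that were listed all stayed under 1 FPKM in every library, with summed levels of 0.236 to 0.262 FPKM in Scramble, 0.0347 to 0.149 after Si-KDM4C#1 and 0.221 to 0.450 after Si-KDM4C#2. AFP was above 0 in 1 Scramble library only and HNF4A reached at most 0.128 FPKM, which goes against a hepatocyte-like profile for cells labelled Huh7. Of 5 epithelial markers 4 were listed. The keratins KRT8 and KRT18 were abundant and gave nearly all of the summed 240 to 353 FPKM, while KRT19 reached at most 0.2998 FPKM and CDH1 at most 0.0322 FPKM. All 3 leukocyte markers stayed under 1 FPKM.

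KIF1C lies on chromosome 17 and KIF5B on chromosome 10. The windows around their transcription starts are printed because, among the members, KIF1C had the highest rise and KIF5B the deepest fall. Each window runs from 250 bases before to 50 bases after the start, as RefSeq gives it for GRCh38.p14, and 8 of the 10 members had such an entry. Capitals mark GC boxes (GGGCGG or its complement CCGCCC) and CCAAT boxes (CCAAT or its complement ATTGG).
KIF1C, chr17:4997700-4997999, plus strand: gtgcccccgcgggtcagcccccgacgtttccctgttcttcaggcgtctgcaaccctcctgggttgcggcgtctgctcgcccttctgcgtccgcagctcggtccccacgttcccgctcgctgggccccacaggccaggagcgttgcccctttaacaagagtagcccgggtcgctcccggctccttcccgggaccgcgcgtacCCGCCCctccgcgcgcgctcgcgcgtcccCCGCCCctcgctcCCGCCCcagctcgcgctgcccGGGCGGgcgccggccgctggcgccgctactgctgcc
KIF5B, chr10:32056376-32056675, minus strand: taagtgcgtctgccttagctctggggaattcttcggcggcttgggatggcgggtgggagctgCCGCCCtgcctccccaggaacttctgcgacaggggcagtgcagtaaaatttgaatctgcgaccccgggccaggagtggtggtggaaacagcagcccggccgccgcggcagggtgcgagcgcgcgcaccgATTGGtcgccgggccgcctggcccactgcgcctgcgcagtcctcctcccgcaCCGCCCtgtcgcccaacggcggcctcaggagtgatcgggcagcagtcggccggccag

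The KIF1C window held 4 GC boxes, no CCAAT box and 42 CpG dinucleotides. The KIF5B window held 2 GC boxes, 1 CCAAT box and 30 CpG dinucleotides. Among 35116 promoter windows of the same length, 45.0% held a GC box and 34.6% a CCAAT box, and the median number of CpG dinucleotides was 14. Both windows were thus CpG-rich. The first listed windows of KIF1B (39), KLC1 (35), KIF3A (28) and KIF3B (17) were also above that median. Those of KIF1A (10) and KIF5C (2) were below it. A link between CpG content and the mRNA changes was not tested. Neither held an E-box (CACGTG, in 7.26% of all windows), a CRE (TGACGTCA, in 1.85%) or a TATA box (TATAAA or its complement TTTATA, in 11.5%). Both strands were searched, and a match is a run of letters only, with no statement about binding.

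KIF1C is a kinesin-3 heavy chain that moves dense-core vesicles and mRNAs and supports the trailing tails of migrating cells. Its gene (ENSG00000129250) spans chr17:4997948-5028401 on the plus strand of GRCh38 and has an exon length of 8580 nt in GENCODE 29. Its level was 7.94, 7.97 and 8.67 FPKM in Scramble, 45.2, 44.7 and 42.8 FPKM after Si-KDM4C#1, and 36.3, 36.5 and 35.1 FPKM after Si-KDM4C#2. The 3 groups did not overlap, and the siRNA libraries were all far above the control libraries. Behind these values lay 1029, 1088 and 1275 recovered fragments in Scramble, 6999, 5600 and 5904 after Si-KDM4C#1, and 4822, 4868 and 5134 after Si-KDM4C#2.

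Mean KIF1C was 8.20 ± 0.412 FPKM (SD, n = 3) in Scramble, 44.2 ± 1.24 after Si-KDM4C#1 and 35.9 ± 0.750 after Si-KDM4C#2, ratios of 5.40 and 4.38 to the control. On the log2(FPKM + 1) scale, which shrinks the changes of low genes, the differences were 2.30 and 2.01, each the 10th highest of 14363 tested genes. These are the values KIF1C was selected on. The comparison between the siRNAs was not used for the choice. KIF1C was lower after Si-KDM4C#2 than after Si-KDM4C#1 (a log2 difference of -0.29, SE 0.043, limma-trend adjusted p = 0.00023), 0.812 of the Si-KDM4C#1 level. In that comparison 26.5% of all tested genes were lower at a false discovery rate (FDR) of 0.05, so KIF1C shared its call with many genes.

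**Figure D1:**
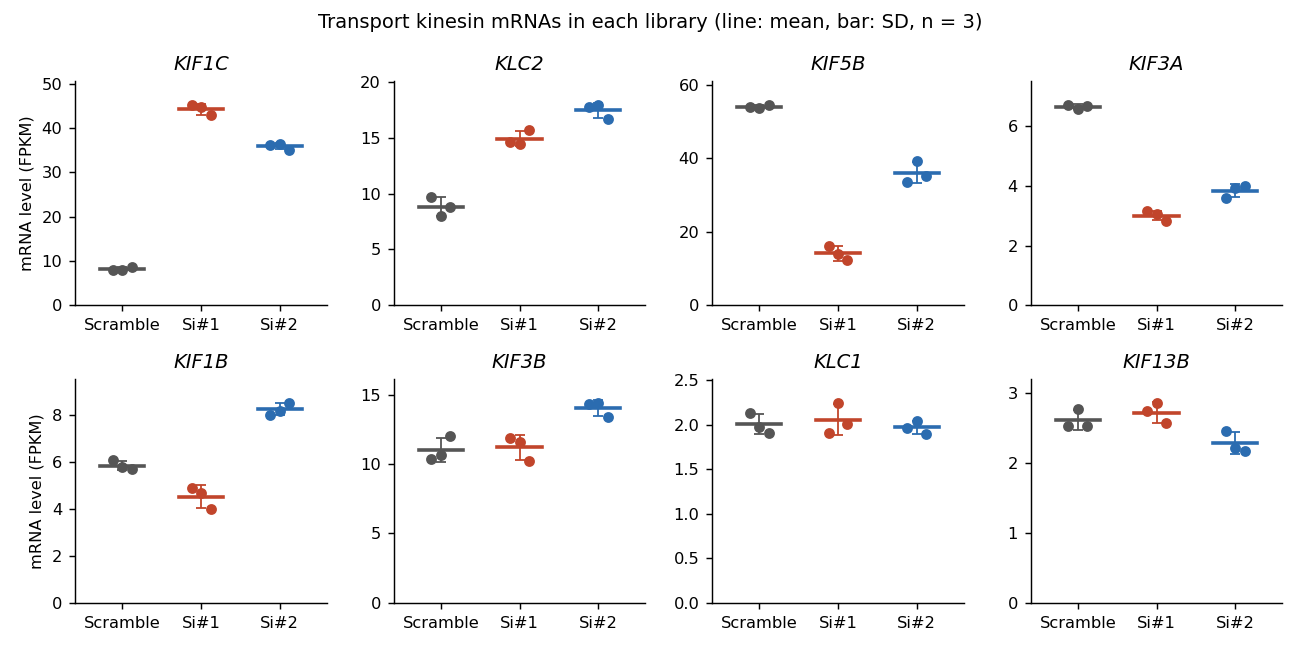
FPKM of the 8 members above the filter (y axis, from 0, a scale of its own for each gene) in the 9 libraries (x axis, Si#1 is Si-KDM4C#1 and Si#2 is Si-KDM4C#2). Dots are libraries, horizontal lines means and bars the SD; KIF1C rises from 8.20 to 44.2 and 35.9 FPKM while KIF5B falls from 53.9 to 14.1 and 36.1 FPKM.

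The genes next to KIF1C did not share its levels. INCA1, the coding gene upstream on the opposite strand at chr17:4988130-4997610, stood at 2.18, 1.78 and 1.99 FPKM in Scramble, 2.39, 1.72 and 1.80 FPKM after Si-KDM4C#1, and 4.11, 3.77 and 3.70 FPKM after Si-KDM4C#2. The Si-KDM4C#2 libraries were all above the control, and the Si-KDM4C#1 libraries overlapped it. SLC52A1, a riboflavin transporter gene at chr17:5032600-5052009, never passed 0.0985 FPKM. The antisense gene AC004771.1 at chr17:5019214-5020093 overlaps KIF1C exons by 84 nt. It held 4 to 15 fragments per library, at means of 1.29 FPKM in Scramble, 0.528 after Si-KDM4C#1 and 1.43 after Si-KDM4C#2. Whether counting used strand is not given in the sources used here, so reads in that overlap cannot be assigned, but they are few beside the KIF1C fragments. The antisense genes AC004771.5 and AC004771.3 upstream held 24 fragments or fewer in any library, and the pseudogene AC012146.2 downstream held 1 fragment in all.

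The other members moved in several directions. At an FDR of 0.05, 1 of the 7 tested members other than KIF1C was higher and 3 were lower after Si-KDM4C#1, against 31.7% of all tested genes higher and 33.9% lower. With Si-KDM4C#2, 3 were higher and 2 lower, against 34.4% and 25.0% of all genes. Their median difference was 0.02 after Si-KDM4C#1 and -0.02 after Si-KDM4C#2, beside -0.03 and 0.06 for all genes. When a fold change over 2 was also asked for, 1 of the 7 passed after Si-KDM4C#1 (KIF5B) and 0 after Si-KDM4C#2. The same limits were met by 8.87% and 4.89% of all genes. With only 7 genes, 1 call more or less changes a share strongly, so these counts are not read as a difference from the background. The members past the FDR alone after Si-KDM4C#2 numbered 5, and none of them passed the added fold limit.

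KIF5B is the ubiquitous heavy chain of kinesin-1 and the most abundant member in the control cells. The gene (ENSG00000170759) lies at chr10:32009010-32056431 on the minus strand. Its level was 53.8, 53.5 and 54.4 FPKM in Scramble, 16.1, 13.9 and 12.2 FPKM after Si-KDM4C#1, and 33.6, 39.3 and 35.2 FPKM after Si-KDM4C#2. All siRNA libraries lay below all control libraries, and the Si-KDM4C#1 libraries lay below the Si-KDM4C#2 libraries.

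KIF5B fell by 1.87 on the log2 scale after Si-KDM4C#1 (SE 0.088, limma-trend adjusted p = 1.1e-07), which left 0.262 of the control level, and ranked 57th from the lowest of all tested genes. It fell by 0.57 after Si-KDM4C#2 (SE 0.088, limma-trend adjusted p = 0.00037), to 0.668 of the control level. The difference between the siRNAs was itself 1.299 (limma-trend adjusted p = 1.4e-06). No 50-base stretch of the KIF5B transcript occurs in another annotated gene, so its counts are not shared with its relatives.

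KLC2 and KLC1 encode kinesin light chains, which bind the heavy chain dimer and recruit cargo. KLC2 stood at 9.74, 8.02 and 8.78 FPKM in Scramble, 14.6, 14.5 and 15.7 FPKM after Si-KDM4C#1, and 17.8, 18.0 and 16.7 FPKM after Si-KDM4C#2. Every siRNA library was above every control library. KLC2 rose by 0.70 after Si-KDM4C#1 (SE 0.066, limma-trend adjusted p = 9.7e-06) and by 0.91 after Si-KDM4C#2 (limma-trend adjusted p = 2.7e-06), or 1.69 and 1.97 times in FPKM. It was also higher after Si-KDM4C#2 than after Si-KDM4C#1 by 0.21 (limma-trend adjusted p = 0.018), a call that was lost with median-ratio scaling (0.12, limma-trend adjusted p = 0.13). Leaving out replicate 1 or 2 of either siRNA group also ended that call, at 0.19 to 0.20.

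KLC1 stood at 2.13, 1.98 and 1.91 FPKM in Scramble, 1.91, 2.25 and 2.01 FPKM after Si-KDM4C#1, and 1.97, 2.05 and 1.90 FPKM after Si-KDM4C#2. The 3 groups overlapped. The differences from Scramble were 0.02 (95% interval -0.14 to 0.19) and -0.02 (-0.18 to 0.15) on the log2 scale, neither past the FDR. KLC1 is uncertain here, since XRCC3 on the opposite strand overlaps 29.9% of its exon length and 45.0% of the 50-base stretches of its longest transcript occur in other genes.

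The ratio of the KIF5B heavy chain to the sum of KLC1 and KLC2, in FPKM, was 4.53, 5.35 and 5.09 in Scramble, 0.976, 0.832 and 0.690 after Si-KDM4C#1, and 1.70, 1.97 and 1.90 after Si-KDM4C#2. By FPKM, KIF5B mRNA thus went from several times that sum to below it after Si-KDM4C#1, and stayed above it after Si-KDM4C#2. Where it stood against that sum is uncertain, because KLC1 is uncertain here and FPKM divides by annotated exon length. That length is 19251 nt for KLC1, 5479 nt for KLC2 and 5877 nt for KIF5B. The log2 ratio differed from Scramble by -2.59 and -1.43. After GC adjustment these differences shrank to -2.08 and -1.02. The ratio was chosen after its values were seen and is given with no test. The light chain KLC4 is not in the sum. These ratios are of mRNA and say nothing of protein.

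**Figure D2:**
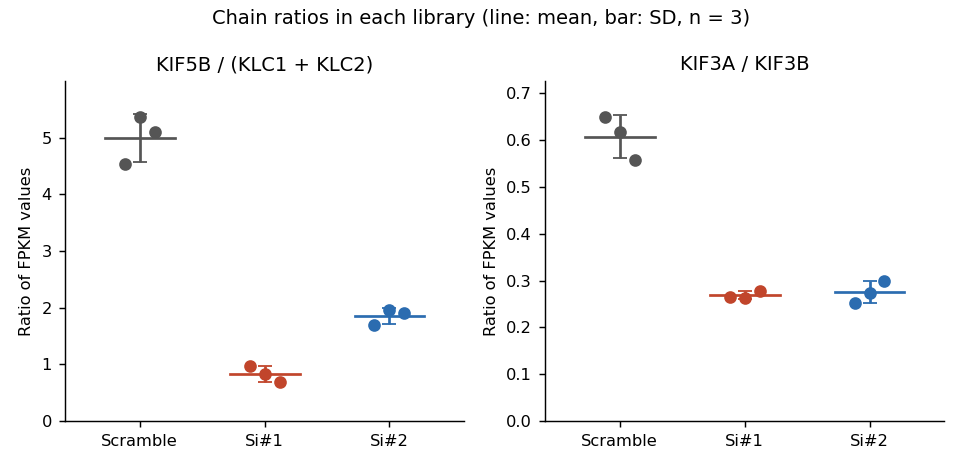
Ratios of FPKM values (y axes, from 0) in each library for KIF5B over KLC1 plus KLC2 (left) and KIF3A over KIF3B (right), in Scramble, Si-KDM4C#1 (Si#1) and Si-KDM4C#2 (Si#2). Dots are libraries, lines means and bars the SD; the left ratio has group means of 4.99, 0.833 and 1.85, and the right one 0.608, 0.269 and 0.275.

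KIF3A and KIF3B are the motor subunits of heterotrimeric kinesin-2, the anterograde motor of intraflagellar transport, and pair with each other. KIF3A stood at 6.72, 6.58 and 6.69 FPKM in Scramble, 3.15, 3.05 and 2.83 FPKM after Si-KDM4C#1, and 3.61, 3.94 and 3.99 FPKM after Si-KDM4C#2. Both siRNA groups were below all control libraries. KIF3A fell by 0.94 after Si-KDM4C#1 (SE 0.055, limma-trend adjusted p = 4.1e-07) and by 0.66 after Si-KDM4C#2 (limma-trend adjusted p = 6.4e-06), to 0.451 and 0.577 of the control level. The siRNAs differed by 0.27 (limma-trend adjusted p = 0.0017), a call that ended at 0.11 (limma-trend adjusted p = 0.065) after adjustment for GC content.

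KIF3B did not follow KIF3A. It stood at 10.4, 10.7 and 12.03 FPKM in Scramble, 11.8, 11.6 and 10.2 FPKM after Si-KDM4C#1, and 14.3, 14.4 and 13.4 FPKM after Si-KDM4C#2. The Si-KDM4C#1 libraries overlapped Scramble, with a difference of 0.02 on the log2 scale (95% interval -0.13 to 0.18, limma-trend adjusted p = 0.78). KIF3B rose by 0.32 after Si-KDM4C#2 (SE 0.069, limma-trend adjusted p = 0.0028).

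The KIF3A to KIF3B ratio was 0.648, 0.618 and 0.557 in Scramble, 0.266, 0.262 and 0.278 after Si-KDM4C#1, and 0.252, 0.274 and 0.299 after Si-KDM4C#2. Both siRNA groups were below Scramble and overlapped each other. The log2 ratio differed from Scramble by -1.18 and -1.14, and between the siRNAs by 0.03. After GC adjustment the differences from Scramble were -0.88 and -1.01. Quantile normalization gave -1.02 for Si-KDM4C#1. This ratio too was chosen after its values were seen and has no test.

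KIFAP3, the accessory subunit that joins the KIF3A and KIF3B pair to cargo, is no member but belongs to the same complex. It stood at 7.41, 9.10 and 8.02 FPKM in Scramble, 2.01, 1.95 and 1.84 FPKM after Si-KDM4C#1, and 5.86, 4.63 and 5.65 FPKM after Si-KDM4C#2. It fell by 1.64 after Si-KDM4C#1 (SE 0.089, limma-trend adjusted p = 2.8e-07) and by 0.53 after Si-KDM4C#2 (limma-trend adjusted p = 0.00072). KIFAP3 was picked for passing the FDR in the same direction with both siRNAs, so these p-values are a description. Of these 3 subunits, KIF3A and KIFAP3 were lower with both siRNAs and KIF3B was lower with neither. KIF3C, a further kinesin-2 motor gene that is no member, was higher with both, by 0.38 and 0.45, each past the FDR.

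KIF1B, the kinesin-3 paralog of KIF1C that carries mitochondria and synaptic vesicle precursors, moved in opposite directions with the siRNAs. It stood at 6.07, 5.77 and 5.69 FPKM in Scramble, 4.91, 4.69 and 3.99 FPKM after Si-KDM4C#1, and 8.02, 8.19 and 8.52 FPKM after Si-KDM4C#2. All Si-KDM4C#1 libraries were below and all Si-KDM4C#2 libraries above the control. KIF1B fell by 0.31 after Si-KDM4C#1 (SE 0.066, limma-trend adjusted p = 0.0023) and rose by 0.43 after Si-KDM4C#2 (limma-trend adjusted p = 0.00035). The siRNAs differed by 0.74 (limma-trend adjusted p = 8.1e-06). No 50-base stretch is shared between KIF1B and KIF1C, or between any other members.

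The ratio of KIF1C to KIF1B, which contains the values KIF1C was chosen by, ran from 1.31 to 1.52 in Scramble, from 9.20 to 10.7 after Si-KDM4C#1 and from 4.11 to 4.52 after Si-KDM4C#2. The spread between the siRNA groups in this ratio came from both genes, since KIF1C was higher and KIF1B lower after Si-KDM4C#1.

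KIF13B is a kinesin-3 motor that binds the scaffold protein DLG1. It stood at 2.53, 2.77 and 2.53 FPKM in Scramble, 2.73, 2.85 and 2.56 FPKM after Si-KDM4C#1, and 2.46, 2.20 and 2.17 FPKM after Si-KDM4C#2. The Si-KDM4C#2 libraries were lowest. The differences from Scramble were 0.04 (95% interval -0.11 to 0.19) and -0.14 (-0.29 to 0.01), neither past the FDR, although median-ratio scaling took the value after Si-KDM4C#2 past it at -0.19 (limma-trend adjusted p = 0.031). Between the siRNAs KIF13B differed by -0.18 (limma-trend adjusted p = 0.040). That call was lost when replicate 1 or 2 of Si-KDM4C#1, or replicate 2 or 3 of Si-KDM4C#2, was left out (-0.18 to -0.15).

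KIF1A and KIF5C, the kinesin-3 and kinesin-1 heavy chains of neurons, were at or near 0 throughout and did not pass the filter of a mean of 1 FPKM in a group. KIF1A was listed at 0.00944 FPKM in 1 Scramble library, at 0 after Si-KDM4C#1 and at 0.0052 to 0.00949 FPKM after Si-KDM4C#2. KIF5C was listed at 0.019 FPKM, 3 fragments, in 1 Scramble library and at 0 in the other 8. No fold is given for either. Of 8 neuronal markers, 5 were listed, and SYP and SNAP25 reached 1 FPKM. The summed level of the 5 was 4.46 to 5.26 FPKM in Scramble, 12.1 to 13.7 after Si-KDM4C#1 and 4.28 to 4.46 after Si-KDM4C#2, with SYP at 3.75 to 4.71 FPKM after Si-KDM4C#1. SYP and SNAP25 made up nearly all of that sum. TUBB3 was also higher after Si-KDM4C#1 (0.2875 to 0.402 FPKM) than in Scramble (0.135 to 0.185 FPKM). MAP2 was lower after Si-KDM4C#1 (0.043 to 0.054 FPKM) than in Scramble (0.109 to 0.157 FPKM), and RBFOX3 after Si-KDM4C#1 overlapped Scramble. After Si-KDM4C#2, RBFOX3 (0.255 to 0.516 FPKM, beside 0.141 to 0.191 in Scramble) and SYP (0.393 to 0.530, beside 0.191 to 0.241) were above Scramble. SNAP25 was below it (3.06 to 3.37 FPKM, beside 3.89 to 4.51), and TUBB3 and MAP2 overlapped it.

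**Figure D3:**
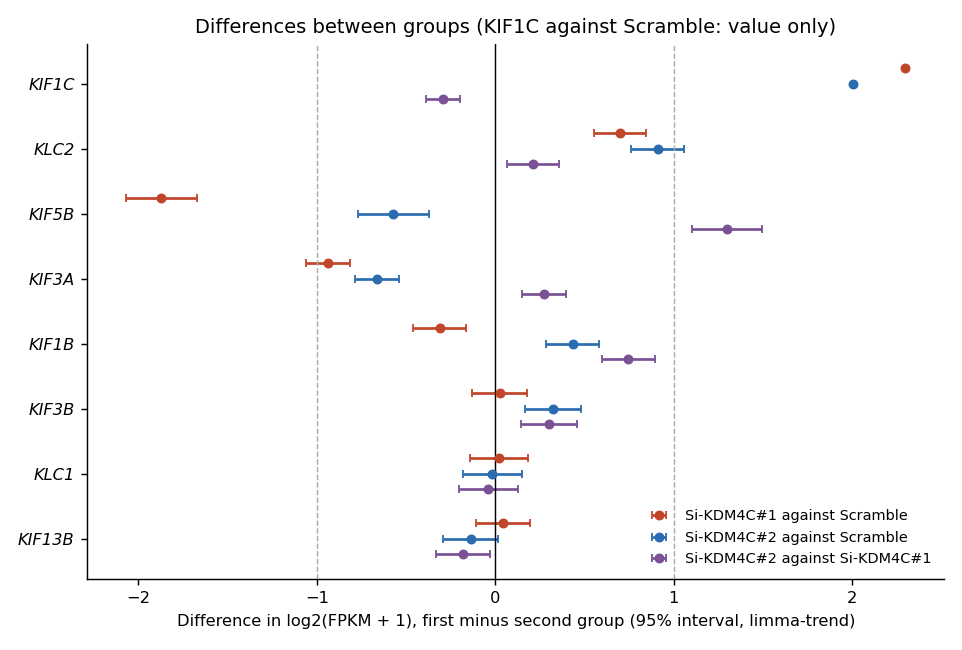
Difference in log2(FPKM + 1), first minus second group of each comparison (x axis), for the 8 members that passed the filter (y axis). Points are limma-trend estimates and bars 95% intervals, drawn for all but KIF1C against Scramble, and dashed lines mark a fitted 2-fold difference; KIF5B lies at -1.87 and -0.57, KLC2 at 0.70 and 0.91, and KIF1B on opposite sides of 0.

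Between the siRNA groups, 5 of the 7 tested members other than KIF1C were higher after Si-KDM4C#2 and 1 (KIF13B) was lower, against 35.9% of all genes higher and 26.5% lower. The 5 were KIF1B, KIF3A, KIF3B, KIF5B and KLC2. Their median difference was 0.27, beside 0.08 for all genes. With a fold change over 2 added, 1 of the 7 passed (KIF5B), against 6.91% of all genes. Both siRNAs were compared with the same 3 Scramble libraries.

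The order of the members by FPKM changed with treatment. In Scramble it was KIF5B, KIF3B, KLC2, KIF1C, KIF3A, KIF1B, KIF13B and KLC1, and of these neighbours only KLC2 and KIF1C overlapped. With Si-KDM4C#1 it was KIF1C, KLC2, KIF5B, KIF3B, KIF1B, KIF3A, KIF13B and KLC1, with overlap between KLC2 and KIF5B and between KIF3A and KIF13B. With Si-KDM4C#2 it was KIF5B, KIF1C, KLC2, KIF3B, KIF1B, KIF3A, KIF13B and KLC1, with overlap between KIF5B and KIF1C only. KIF1C thus stood 4th, at the top, and level with KIF5B in the 3 groups.

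Summed over KIF1B, KIF1C, KIF3A, KIF3B, KIF5B and KIF13B, heavy-chain mRNA ran from 87.3 to 90.1 FPKM in Scramble, from 74.7 to 84.0 after Si-KDM4C#1 and from 98.3 to 104.5 after Si-KDM4C#2. KIF5B made up 60.4% to 61.5% of that sum in Scramble, 16.4% to 19.2% after Si-KDM4C#1 and 34.2% to 37.6% after Si-KDM4C#2. KIF1C made up 9.08% to 9.63%, 53.8% to 57.4% and 34.9% to 36.9%. Without KIF1C the sum was 79.3 to 81.4 FPKM in Scramble, 31.8 to 38.8 after Si-KDM4C#1 and 62.0 to 68.1 after Si-KDM4C#2. The total therefore moved far less than its makeup did, a description that includes the values KIF1C was chosen by.

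**Figure D4:**
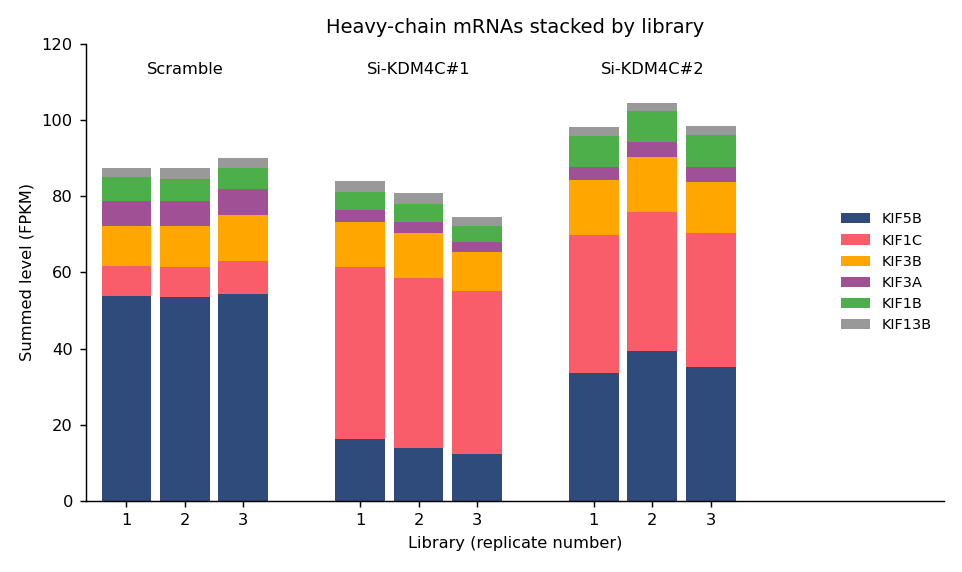
Stacked FPKM (y axis, from 0) of 6 heavy-chain mRNAs in each library (x axis, replicate number within each group). KIF5B (bottom) gives 60.4% to 61.5% of the stack in Scramble and 16.4% to 19.2% after Si-KDM4C#1, where KIF1C gives 53.8% to 57.4%.

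The members that fell with both siRNAs have AT-rich transcripts and those that rose with both GC-rich ones. GC content of the longest transcript was 37.8% for KIF3A and 39.1% for KIF5B, against 61.7% for KLC2 and 54.9% for KIF1C. KIF1B, which moved in opposite directions, was at 47.1%. KIF13B, at 54.6%, and KLC1, at 57.9%, were as GC-rich as KIF1C and did not rise past the FDR. Over all tested genes with 35% to 40% GC (2011 genes) the median difference was -0.28 after Si-KDM4C#1 and -0.10 after Si-KDM4C#2. Over those with 60% to 65% (1509 genes), the range that holds KLC2, it was 0.24 and 0.31. Over those with 50% to 55% (2318 genes), the range that holds KIF1C, it was only 0.07 and 0.11. After a GC adjustment, KIF5B differed by -1.62 and -0.47, KIF3A by -0.66 and -0.55, KLC2 by 0.46 and 0.62, and KIF1C by 2.19 and 1.86, so the directions stood, and the KLC2 difference after Si-KDM4C#1 shrank over 1.5 times.

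Mitotic kinesins, which build the spindle and segregate chromosomes, were counted in the same way. All 13 were tested, and after Si-KDM4C#1 3 were higher, 9 lower and 1 not past the FDR, at a median of -0.20, beside 31.7% of all tested genes higher and 33.9% lower. With Si-KDM4C#2 11 were higher, none lower and 2 not past the FDR, at a median of 0.45, beside 34.4% and 25.0% of all genes. Between the siRNAs 12 were higher after Si-KDM4C#2, beside 35.9% of all genes. After the GC adjustment 5 in place of 9 were lower after Si-KDM4C#1 (2 higher), and 9 in place of 11 higher after Si-KDM4C#2. Genes named from this list and the lists below were picked for passing the FDR in the same direction with both siRNAs. Their p-values against Scramble are thus a description, and the named genes do not stand for their lists. KIF2C, a microtubule depolymerase, was at 20.3 ± 0.569, 28.7 ± 1.43 and 34.7 ± 2.44 FPKM (SD, n = 3) in Scramble, Si-KDM4C#1 and Si-KDM4C#2. It rose by 0.48 and 0.75 (limma-trend adjusted p = 4.2e-05 and 3.4e-06). KIFC1, a minus-end motor that clusters centrosomes, went from 22.8 ± 0.793 to 25.3 ± 0.828 and 42.3 ± 1.87 FPKM. Its rise after Si-KDM4C#2 was 0.86 (limma-trend adjusted p = 3.9e-07), while the 0.14 after Si-KDM4C#1 turned to -0.02 after GC adjustment and to -0.01 with quantile normalization, and lost its call without replicate 2 of Scramble (0.12) or of Si-KDM4C#1 (0.12).

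Other transport and ciliary kinesins numbered 19, of which 14 were tested. With Si-KDM4C#1 5 were higher and 5 lower, after Si-KDM4C#2 6 and 5. The shares of all genes were 31.7% and 33.9%, then 34.4% and 25.0%, close to these counts for Si-KDM4C#1. KIF21A, a motor of the kinesin-4 family that restrains microtubule growth, fell from 9.15 ± 0.553 to 5.56 ± 0.620 and 5.32 ± 0.286 FPKM, log2 differences of -0.63 and -0.68 (limma-trend adjusted p = 5.5e-05 and 4.6e-05). KIF9, a ciliary motor, rose from 0.388 ± 0.103 FPKM to 2.29 ± 0.101 after Si-KDM4C#1, by 1.25 (limma-trend adjusted p = 3.2e-06). It reached 0.730 ± 0.0785 FPKM after Si-KDM4C#2, a difference of 0.32 (limma-trend adjusted p = 0.020) that lost its call after GC adjustment (0.22) and without Scramble replicate 3 (0.28), Si-KDM4C#2 replicate 2 (0.30) or Si-KDM4C#2 replicate 3 (0.30), and with only the 6 libraries of the comparison (0.32, limma-trend adjusted p = 0.077).

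All 23 kinesin adaptors and regulators were tested. With Si-KDM4C#1 9 were higher and 9 lower, and after Si-KDM4C#2 7 and 7, which became 5 higher and 11 lower with quantile normalization or median-ratio scaling. Of all genes 31.7% were higher and 33.9% lower, then 34.4% and 25.0%. TRAK2, which links kinesin-1 to mitochondria, fell from 11.3 ± 0.707 to 3.91 ± 0.248 FPKM after Si-KDM4C#1 and to 9.04 ± 0.147 after Si-KDM4C#2, log2 differences of -1.33 and -0.29 (limma-trend adjusted p = 6.8e-08 and 0.0016). HOOK1, a cargo adaptor of dynein, fell from 2.85 ± 0.155 to 1.02 ± 0.214 and 2.11 ± 0.0449 FPKM, log2 differences of -0.94 and -0.31 (limma-trend adjusted p = 9.6e-06 and 0.013), and the second call ended after GC adjustment at -0.18.

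Dynein and dynactin, the motor and cofactor that carry cargo toward the minus end, gave 27 genes and 26 tested. With Si-KDM4C#1 7 were higher and 11 lower, and after Si-KDM4C#2 9 and 8, the latter 7 and 14 with quantile normalization. The shares of all genes stood at 31.7% and 33.9%, then 34.4% and 25.0%. BICD2, which activates dynein and recruits it to Golgi vesicles, stood at 4.10, 4.13 and 4.41 FPKM in Scramble, 19.3, 19.9 and 17.4 FPKM after Si-KDM4C#1, and 12.2, 11.03 and 11.3 FPKM after Si-KDM4C#2. It rose by 1.93 and 1.26 (limma-trend adjusted p = 1.4e-08 and 2.1e-07). DYNLL2, a dynein light chain, rose from 7.59 ± 0.384 to 24.7 ± 2.38 and 13.8 ± 0.0892 FPKM, by 1.58 and 0.79 (limma-trend adjusted p = 5.1e-08 and 5.8e-06). DCTN4, a dynactin subunit, fell from 14.1 ± 0.570 to 5.76 ± 0.557 and 10.4 ± 0.803 FPKM, log2 differences of -1.16 and -0.40 (limma-trend adjusted p = 5.6e-07 and 0.00089).

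**Figure D5:**
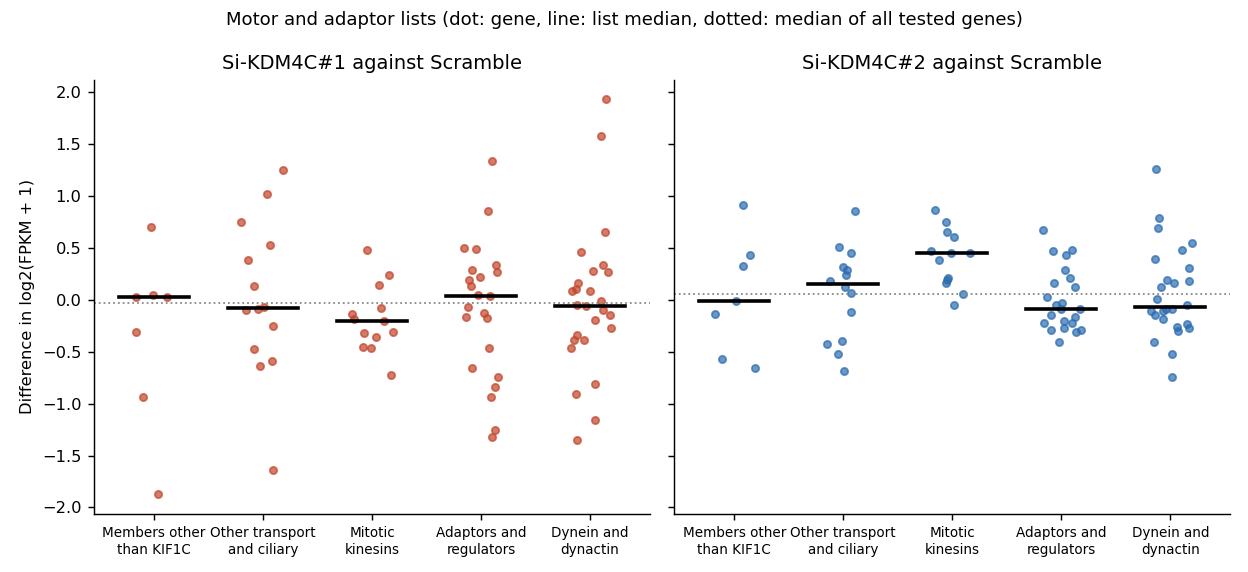
Difference in log2(FPKM + 1) from Scramble (y axis) after Si-KDM4C#1 (left) and Si-KDM4C#2 (right) for the tested genes of 5 lists (x axis). Dots are genes, black lines list medians and the dotted line the median of all 14363 genes; the mitotic kinesins have medians of -0.20 and 0.45, and the 7 members other than KIF1C 0.02 and -0.02.

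The genes with the pattern most like KIF1C were named by Pearson correlation of log2(FPKM + 1) over the 9 libraries, among the 7659 tested genes whose mean level reached 5 FPKM. They were ECI1 (r = 0.9992), ADAM15 (0.9986), HDGF (0.9982), TOP1MT (0.9980) and SIL1 (0.9979). ECI1, a mitochondrial enzyme of fatty acid oxidation, went from 10.7 ± 0.368 to 39.2 ± 0.702 and 33.2 ± 1.19 FPKM, and ADAM15, a membrane metalloprotease, from 15.1 ± 0.187 to 63.4 ± 1.68 and 54.5 ± 0.363 FPKM. The 9 points fall into the 3 groups and share their libraries. An r of at least 0.98 was reached by 232 genes (3.03%) and of at least 0.9 by 1158 (15.1%), so a high r was not limited to the named genes. The share at the r of the 5 named genes was not counted.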

How the data were processed

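Total RNA of 9 Huh7 libraries was sequenced in pairs on an Illumina NovaSeq. The authors deposited FPKM per gene, and the submitters' notes name FastQC 0.11.5, HISAT2 2.1.0, StringTie 1.3.3b, featureCounts, DESeq 1.28.0 and GRCh38 without giving their roles. FPKM scales each library to its own total, so a large change in a few genes shifts all others. Groups were taken from the labels.

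The 14363 genes whose mean reached 1 FPKM in any group were compared on log2(FPKM + 1) with limma-trend (limma 3.58.1, R 4.3.3) over all 9 libraries, without covariates, with Benjamini-Hochberg adjustment over all genes. The fold limit of 2 applies to the fitted log2 difference. The members, lists and tests were chosen with earlier results of these data known, and the chain ratios after their values were seen, so no test of them is given. Named genes were the members, KDM4C, up to 3 genes per list with the largest mean difference among those past the FDR in 1 direction with both siRNAs, the 5 most like KIF1C and the 3 listed genes on either side of it. The named markers fall outside this rule, and 1 gene it names is not reported here.

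Multiplied by GENCODE 29 exon lengths, 97.7% of the 32847 listed genes found in that release gave whole fragments (within 0.05) in all libraries. A count of 0 allows up to 3 fragments, or 0.166 to 0.206 FPKM for 1 kb of exon, which covers counting error only. Replicates of a group differed beyond sampling noise (a chi-square over its degrees of freedom of 2.56 to 5.13). GC content was that of the longest transcript. Alternatives were quantile normalization, median-ratio scaling, a pseudocount of 0.1, other filters, 6 libraries per fit, a replicate block, GC adjustment, limma voom on fragments and leaving out each library. The fit was also run on simulated data with changes planted in a small set of genes and 1 fixed spread. That setting is simpler than these data and does not test the fit under their conditions. Python 3.11.15, numpy 2.4.6, pandas 2.3.3, scipy 1.17.1 and matplotlib 3.10.9 were used.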

Additional observations from a re-analysis of the deposited data

Results flagged for a closer look

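KIF1B was flagged because its effect differed between the siRNAs in a test of the difference itself (0.74 on the log2 scale, Si-KDM4C#2 minus Si-KDM4C#1, limma-trend adjusted p = 8.1e-06), with all 3 libraries of Si-KDM4C#1 below and all 3 of Si-KDM4C#2 above Scramble. KIF5B was flagged in the same way, at 1.299 (limma-trend adjusted p = 1.4e-06), with both groups below Scramble.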

How the results depend on the processing

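KIF1C against Scramble kept its direction under every alternative run. With Si-KDM4C#1 it moved to 2.20 with quantile normalization, 2.42 with a pseudocount of 0.1, 2.19 after GC adjustment and 2.50 with voom, and after Si-KDM4C#2 to 1.93 with median-ratio scaling, 2.12 with the pseudocount, 1.86 after GC adjustment and 2.07 with voom, with or without a replicate block in the GC and voom fits. Adding the fold limit took the calls among the 7 other members from 4, 5 and 6 (Si-KDM4C#1, Si-KDM4C#2, and between them) to 1, 0 and 1. The replicate block gave 4, 5 and 5, the lost call being KIF13B between the siRNAs. Deviations from the group means had a mean correlation of 0.016 over 9 pairs of the same number (range -0.046 to 0.055). It was -0.008 over 18 pairs of different number, a value tied to the first because deviations sum to 0 within a group. Averaged over all genes, pairing by number was thus not seen, and a batch shared by number was not tested.

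Differences near 0 changed sign. KIF3B after Si-KDM4C#1 was -0.024 with quantile normalization and -0.015 to 0.086 on leaving out 1 library. KLC1 was -0.14 after GC adjustment after Si-KDM4C#1, and on leaving out 1 library ran from -0.022 to 0.057 after Si-KDM4C#1, -0.039 to 0.014 after Si-KDM4C#2 and -0.073 to 0.0062 between the siRNAs. KIF13B after Si-KDM4C#1 was -0.063 after GC adjustment, and KIFC1 -0.015 after it and -0.014 with quantile normalization. The KIF3A to KIF3B ratio between the siRNAs was -0.11 with quantile normalization, -0.12 after GC adjustment and -0.031 to 0.091 on leaving out 1 library. Calls near the threshold moved too. KLC1 after Si-KDM4C#2 passed the FDR with GC adjustment (-0.22), and KIF13B after Si-KDM4C#2 with GC adjustment (-0.28) and voom (-0.26). Between the siRNAs, KLC1 passed with quantile normalization and voom (both -0.18), KLC2 was lost with voom (0.096), and KIF13B was lost with no filter or with 6 libraries in the fit (both -0.18). The causes were not tested. Depth limits KIF1A, KIF5C and the antisense genes near KIF1C.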
